A study of Mus musculus with 4 samples.

Results

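The genes of the proteasome were followed in mouse bone marrow-derived cells that lacked or carried Nfkb1, over the first days of culture with Flt3 ligand. They were taken as every row of the deposited expression table whose symbol begins with Psm, a letter from a to g and a digit, which gave 51 of 26026 listed genes. Of these, 49 averaged at least 1 RPKM (reads scaled to gene length and to library size) and entered the comparisons. Psma8 and Psmb11, the testis and thymus forms of core subunits, did not pass, with at most 24 reads for Psma8 and 2 for Psmb11 in any library. The symbol rule also takes Psmc3ip, a cofactor of meiotic recombination, and Psme3ip1, a partner of an activator, neither of which is a subunit. It takes Psme2b as well, a close copy of Psme2, so that reads could have been split between these genes.

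The cells were labelled BMDC and were grown from C57/B16 marrow, as the labels spell the strain, in medium with 100 ng/mL of Flt3 ligand. Groups were wild type at day 3, Nfkb1-/- (mutant below, knockout or KO in the plots) at day 3, wild type at day 5 and Nfkb1-/- at day 5, with 1 polyadenylated RNA library in each. All groups received the ligand, and the age and sex of the mice and the construction of the Nfkb1 allele were not given in the sources used here. With 1 library per group no difference below has a replicate check, and the comparison of genotypes asks how the Nfkb1-/- genotype goes with proteasome gene levels.

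The proteasome is the protease that takes apart ubiquitin-tagged proteins in the cytosol and nucleus. Its 20S core stacks outer rings of alpha subunits on inner rings of beta subunits, and only 3 kinds of beta subunit cut: Psmb6 (beta1), Psmb7 (beta2) and Psmb5 (beta5). Cells of the immune system, and other cells under interferon-gamma, put Psmb9, Psmb10 and Psmb8 in their places, which makes the immunoproteasome and favours peptides that class I molecules can present. The 19S cap, built from a base with 6 ATPases and a lid, recognises, unfolds and feeds substrates, while PA28 (Psme1 and Psme2) is an interferon-inducible cap that opens the core without ubiquitin. Dendritic cells are known for high immunoproteasome content.

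Promoter windows of 300 bases, from 250 before to 50 after the annotated start, were at hand for 43 of the 51 genes (RefSeq, GRCm38.p6). The 6 below are shown because the results turn on these genes: the inducible subunits Psmb8 and Psmb9 beside the subunits they replace, the PA28 gene Psme1, and Psmg1, which had the largest genotype difference of the 49. Capitals mark every match, on either strand, to the interferon-gamma-activated site TTCNNNGAA, the interferon response element (GAAA and GAAA with any 2 bases between), the kB site (GGGA, any base, TTTCC) or the antioxidant response element TGACNNNGC, written 5′ to 3′.
Psmb8 (chr17:34197945-34198244, plus strand): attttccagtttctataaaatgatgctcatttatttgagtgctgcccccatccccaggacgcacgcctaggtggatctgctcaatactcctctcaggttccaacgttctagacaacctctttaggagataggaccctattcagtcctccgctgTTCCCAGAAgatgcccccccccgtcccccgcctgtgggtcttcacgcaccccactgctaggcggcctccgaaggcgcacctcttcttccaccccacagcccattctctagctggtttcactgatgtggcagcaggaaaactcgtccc
Psmb5 (chr14:54617946-54618245, minus strand): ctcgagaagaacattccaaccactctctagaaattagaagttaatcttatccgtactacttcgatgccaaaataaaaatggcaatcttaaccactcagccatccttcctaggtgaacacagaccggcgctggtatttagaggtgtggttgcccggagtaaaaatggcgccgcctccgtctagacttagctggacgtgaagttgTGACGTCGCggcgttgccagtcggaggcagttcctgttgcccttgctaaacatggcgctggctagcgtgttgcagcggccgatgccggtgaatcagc
Psmb9 (chr17:34187281-34187580, minus strand): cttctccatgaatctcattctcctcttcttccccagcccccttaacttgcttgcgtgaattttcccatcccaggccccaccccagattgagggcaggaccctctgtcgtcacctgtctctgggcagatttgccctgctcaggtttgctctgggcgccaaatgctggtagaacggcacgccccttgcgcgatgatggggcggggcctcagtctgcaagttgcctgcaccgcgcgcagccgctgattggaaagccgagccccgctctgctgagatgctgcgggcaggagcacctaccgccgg
Psmb6 (chr11:70525107-70525406, plus strand): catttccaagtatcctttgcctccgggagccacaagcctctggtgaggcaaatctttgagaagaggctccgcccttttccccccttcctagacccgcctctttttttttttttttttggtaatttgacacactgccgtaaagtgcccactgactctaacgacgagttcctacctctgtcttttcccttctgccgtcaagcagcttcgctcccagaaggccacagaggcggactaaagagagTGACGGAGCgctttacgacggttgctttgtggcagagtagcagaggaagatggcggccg
Psme1 (chr14:55578244-55578543, plus strand): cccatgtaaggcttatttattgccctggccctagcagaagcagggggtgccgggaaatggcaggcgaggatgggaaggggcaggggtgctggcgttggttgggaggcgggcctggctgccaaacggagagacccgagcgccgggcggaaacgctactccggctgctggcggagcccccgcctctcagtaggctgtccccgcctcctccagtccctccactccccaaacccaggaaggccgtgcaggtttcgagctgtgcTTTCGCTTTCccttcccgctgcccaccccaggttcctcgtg
Psmg1 (chr16:95990911-95991210, minus strand): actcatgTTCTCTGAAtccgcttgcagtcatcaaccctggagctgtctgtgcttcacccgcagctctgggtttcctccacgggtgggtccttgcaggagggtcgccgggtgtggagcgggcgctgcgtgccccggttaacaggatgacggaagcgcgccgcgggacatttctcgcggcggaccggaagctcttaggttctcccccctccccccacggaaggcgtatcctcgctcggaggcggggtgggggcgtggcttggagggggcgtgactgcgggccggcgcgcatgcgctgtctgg

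Psmb8 held 1 interferon-gamma-activated site beginning 97 bases before the start, and Psmg1 held another 243 bases before it. Psme1 held an interferon response element on the opposite strand, past the start. Psmb5 and Psmb6 each held 1 antioxidant response element, beginning 47 and 9 bases before the start, and the Psmb9 window held none of the 4 motifs. Over all 43 genes the interferon-gamma-activated site was found in 3, which is 6.98%, against 9.55% of all 27025 genes with a window and 8.28% of the 9051 that passed the filter on low values. The interferon response element was found in 5 (11.6% against 3.99% of all and 4.04% of filtered genes), the antioxidant element in 6 (14% against 14% and 17.1%) and the strict kB site in 0 (against 0.466% and 0.519%). A looser kB pattern, GGG and CC with any 5 bases between, which every strict match also meets, was found in 25 (58.1%), above the 53.5% of all genes and below the 71.3% of filtered genes. These are matches of letters in one window, not sites of binding.

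The 4 libraries had recovered totals of 15255070 to 16215214 reads, and the 49 proteasome genes had between 81 and 4731 reads each per library, so counting error was small for most. Nfkb1 itself stood at 74.8 RPKM in wild-type cells and 56.0 RPKM in the mutant at day 3, and at 114 RPKM and 64.7 RPKM at day 5. The libraries labelled Nfkb1-/- thus kept transcripts of the gene, and a value summed over the gene does not show whether they carry the disruption. The label of dendritic cells was set against markers: the summed level of 15 conventional dendritic cell markers was 365 to 776 RPKM per library, whereas that of 15 neutrophil markers was 3410 to 34868 RPKM. In every library the sum of these neutrophil markers thus exceeded that of the dendritic ones. S100a9 alone gave 13630 of the 34868 RPKM (wild type day 3) and 1187 of the 3410 RPKM (mutant day 5). The median neutrophil marker was also higher in each library, at 97.9 to 525 RPKM against 6.63 to 24.8 RPKM. Transcripts of both kinds were present, so the cells were taken as a mixed culture. In such bulk RNA, fewer cells of a type and less RNA per cell cannot be told apart.

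Proteasome transcripts were abundant, and the inducible genes were among the highest. Psmb8 stood at 181 RPKM in wild-type cells and 233 RPKM in the mutant at day 3, and at 240 RPKM in both genotypes at day 5. Psme1, the alpha chain of PA28, stood at 213, 224, 236 and 272 RPKM in wild type day 3, mutant day 3, wild type day 5 and mutant day 5. These were the 2 highest levels of all 51 genes in each library. Per length, Psmb8 exceeded every constitutive subunit in all 4 libraries.

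The 31 constitutive subunits of core and cap lay between 14.9 RPKM (Psma3, wild type day 3) and 156 RPKM (Psma2, mutant day 5). In the alpha ring, where each subunit occupies a fixed place in equal number, 6 of 7 genes stood between 35.7 and 156 RPKM, whereas Psma3 stood at 14.9, 18.8, 15.7 and 22.0 RPKM. The ratio of the highest to the lowest alpha gene was 7.36, 7.57, 7.67 and 7.07 in the 4 libraries, in the order used above. The gene length implied by the deposited values for Psma3, 2374 bases, is the longest of the ring (the others run from 936 to 1255 bases), and RPKM falls with the length used, so its part in the low value was not tested. The 6 ATPases of the base differed less, with a ratio of highest (Psmc3) to lowest (Psmc2) of 1.99 to 2.43. Median levels were higher for the 14 constitutive core subunits (85.8, 99.8, 93.1 and 125 RPKM) than for the 17 cap subunits (49.1, 66.8, 58.7 and 83.2 RPKM).

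**Figure D1:**
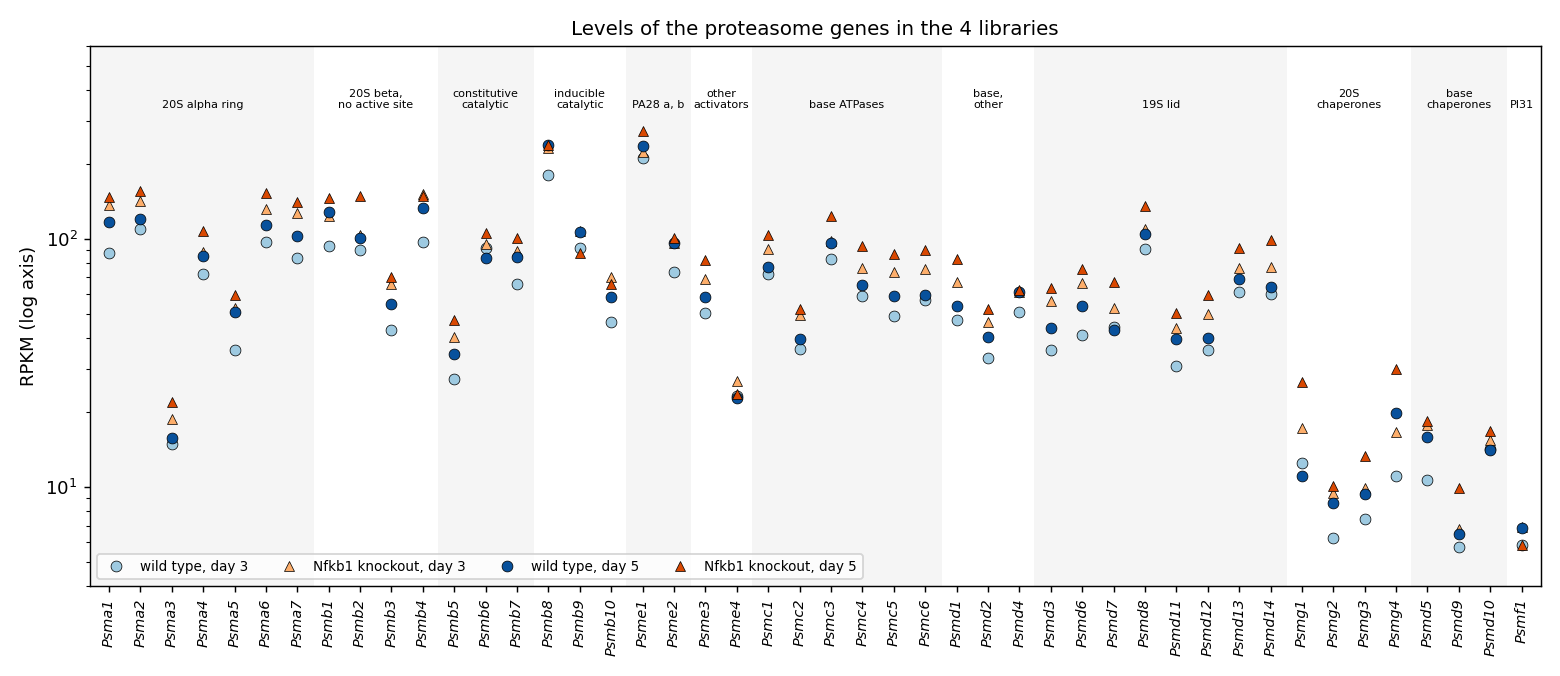
RPKM (log axis) of the proteasome genes that passed the filter, apart from Psmc3ip, Psme3ip1 and Psme2b, grouped by role, in the 4 libraries (circles wild type, triangles mutant, light day 3, dark day 5). The dark triangles of the mutant at day 5 are the highest point for 30 of the 31 constitutive subunits, and for 2 of the 5 inducible and PA28 alpha and beta genes.

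Constitutive subunits were higher in the mutant at both days. At day 3 all 31 were higher, with a median difference of 0.43 in log2(RPKM + 1) against 0.13 over all 11786 genes that passed the filter. Of those genes 66.6% were higher at day 3, and 74.3% of the genes that averaged at least 20 RPKM. At day 5 all 31 were again higher, with a median of 0.40 against 0.01 over all genes. The shares higher at day 5 were 51.2% of all genes and 58.0% of those of at least 20 RPKM. The differences were small in size: by a rule of at least 0.5 on this scale (1.41-fold, apart from the added 1), 9 of 31 were higher and 0 lower at each day. Among all genes 10.8% were higher by that rule at day 3 and 8.54% at day 5, and among the 3164 genes that averaged at least 20 RPKM, to which nearly all subunits belong, 13.9% and 11.4% were. The direction at day 3 held for 30 of 31 after either rescaling of the libraries, Psmb6 being the exception, and at day 5 for all 31. The count past the rule was scale-dependent at day 3, with 1 of 31 after rescaling by the median ratio and 6 after rescaling to one sum of RPKM, against 8 and 10 at day 5. In either direction, 12.7% and 13.2% of all genes passed at day 3 after these rescalings, and 19.8% and 20.3% at day 5. Higher and lower genes were not counted apart there. Relative to the median of all genes, the constitutive median stood 0.30 higher at day 3 and 0.39 higher at day 5.

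Within the core, Psma1, an alpha ring subunit, stood at 88.0 RPKM in wild-type cells and 137 RPKM in the mutant at day 3, a ratio of 1.56 (exact 95% counting interval 1.46 to 1.65). At day 5 it stood at 117 and 147 RPKM, a ratio of 1.25 (1.18 to 1.32). Psmb4, a beta subunit without an active site, showed the same narrowing, with ratios of 1.56 (1.46 to 1.67) and 1.12 (1.05 to 1.19) on levels of 97.5, 152, 133 and 149 RPKM. Both genes were lowest in wild type at day 3, and for Psmb4 the mutant level at day 3 was the highest of the 4. Psmb2, another beta subunit without an active site, went the other way. It stood at 90.6, 104, 101 and 149 RPKM, a ratio of 1.14 (1.06 to 1.24) at day 3 and 1.47 (1.37 to 1.58) at day 5, so that the mutant at day 5 stood apart from the other libraries.

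Within the cap, Psmd7 and Psmd14, which pair in the lid and of which Psmd14 is the deubiquitinase, had genotype ratios that were larger at day 5. Psmd7 stood at 44.1, 52.5, 42.8 and 67.0 RPKM, and Psmd14 at 60.1, 77.4, 64.3 and 99.4 RPKM. For Psmd14 the mutant to wild-type ratio at day 3 was 1.29 (1.2 to 1.38), and that at day 5 was 1.55 (1.45 to 1.65). Psmd3, a lid scaffold, and Psmc5, a base ATPase, passed the rule of 0.5 at both days, with differences of 0.64 and 0.52 for Psmd3 and of 0.57 and 0.56 for Psmc5. Psmd4, a ubiquitin receptor of the base, had the smallest difference of the 31 at day 5, 0.02, at 61.3 RPKM in wild-type cells and 62.3 RPKM in the mutant.

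Core and cap had unlike genotype differences at the 2 days. The median over the 14 core subunits was 0.44 at day 3 and 0.34 at day 5, and over the 17 cap subunits 0.40 and 0.49. The difference was larger at day 5 for 4 of 14 core and 10 of 17 cap genes. Among all 11786 genes it was larger for 3923, with a median movement of -0.14. Movement between the days depends on the scale. After rescaling by the median ratio the median of the constitutive subunits together was 0.26 at day 3 and 0.38 at day 5. Core and cap were not rescaled apart. This contrast between core and cap is a description and was not tested.

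By the median genotype difference, the inducible and PA28 genes lay near the constitutive ones at day 3 and below them at day 5. Psme1 went the other way, from 0.07 at day 3 to 0.20 at day 5. At day 5 Psmb10 at 0.17, Psme1 and Psme2 at 0.06 lay within the constitutive range of 0.02 to 0.63. At day 3 Psmb8, Psmb9, Psmb10, Psme1 and Psme2 were all higher in the mutant, as were 66.6% of all genes. Their median difference was 0.36, and 1 of 5, Psmb10, passed the rule of 0.5 (0 after rescaling by the median ratio). The higher value of Psme1, 0.07, turned negative after either rescaling of the libraries. At day 5 the median was 0.06 and 0 of 5 passed, 3 being higher and 2 lower, where 51.2% of all genes were higher. Of the 2 lower, Psmb8 stood at -0.002. After rescaling to one sum of RPKM 4 were higher and 1, Psmb9, lower. Relative to the median of all genes this list stood 0.24 higher at day 3 and 0.05 higher at day 5.

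Psmb9 (beta1i) stood at 92.1 RPKM in wild-type cells and 108 RPKM in the mutant at day 3, and at 106 and 88.1 RPKM at day 5. It was thus lowest of the 4 in the mutant at day 5, with a ratio of mutant to wild type of 1.17 (1.08 to 1.26) at day 3 and 0.829 (0.765 to 0.898) at day 5. After rescaling by the median ratio the day 3 ratio was 1.04 (0.960 to 1.12), an interval that includes 1, and the day 5 ratio 0.817 (0.754 to 0.885). Psmb8 (beta5i) had ratios of 1.29 (1.23 to 1.35) and 0.998 (0.958 to 1.04), and its lowest level was in wild type at day 3, the other libraries lying between 233 and 240 RPKM. Psmb10 (beta2i) stood at 46.4, 70.4, 58.2 and 65.8 RPKM, with ratios of 1.52 (1.4 to 1.65) and 1.13 (1.04 to 1.22). The day 5 ratio divided by the day 3 ratio was 0.774 (0.729 to 0.823) for Psmb8, 0.710 (0.634 to 0.794) for Psmb9 and 0.744 (0.663 to 0.836) for Psmb10. All 3 intervals lie under 1, but they cover counting error only and say nothing of the spread between cultures. Of the 31 constitutive subunits 9 also had this interval under 1, Psmb4 moving most at -0.48 in log2, and 8 had it above 1. The median movement of all genes was -0.14, with 7863 of 11786 moving down. How many of all genes had such an interval under 1 was not counted, so these counts have no share to stand beside. These values are without rescaling, and rescaling by the median ratio lowered the day 3 ratio of Psmb9 more than the day 5 ratio.

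The chains of PA28 had unlike values. Psme2, the beta chain, stood at 73.4, 96.7, 96.2 and 100.5 RPKM, so wild type at day 3 was low and the other libraries were alike. The mutant to wild-type ratio at day 3 was 1.32 (1.21 to 1.43), and that at day 5 was 1.05 (0.969 to 1.13), while that of Psme1 was larger at day 5, 1.15 (1.1 to 1.21). The level of Psme1 per length was 2.90, 2.32, 2.46 and 2.71 times that of Psme2. The copy Psme2b stood at 30.6 to 33.7 RPKM in all libraries, so neither its level nor its small differences followed Psme2.

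**Figure D2:**
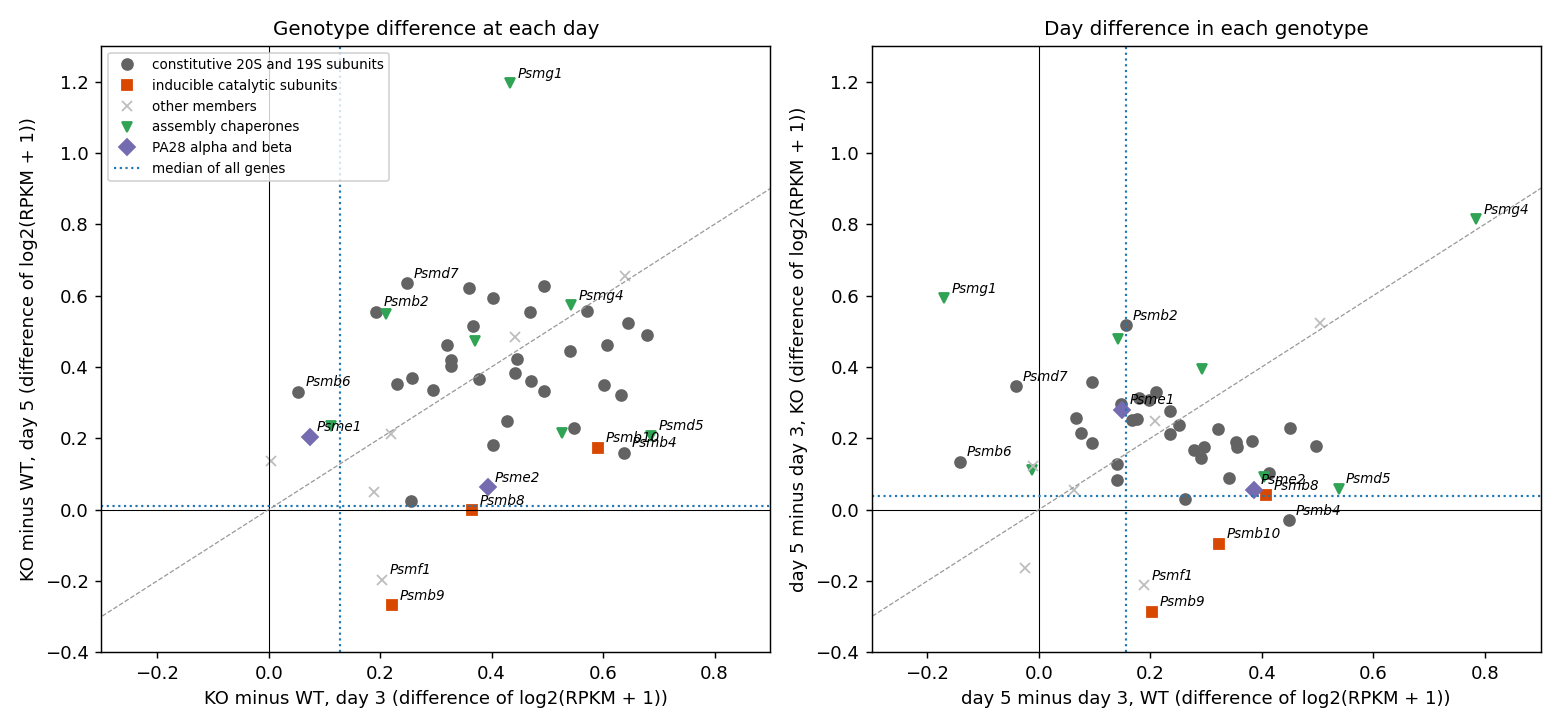
Difference of log2(RPKM + 1) for each proteasome gene: mutant minus wild type at day 3 (x) against day 5 (y) on the left, and day 5 minus day 3 in wild type (x) against the mutant (y) on the right. Dotted lines are medians of all genes (0.13 and 0.01 on the left) and the dashed line marks equal values. Constitutive subunits lie above 0 on both axes of the left panel. At day 5 Psmb9 lies at -0.27, Psmb8 at -0.002 and Psmb10 at 0.17, and the constitutive Psmd4 (0.02) and Psmb4 (0.16) lie below Psmb10.

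The balance between each inducible subunit and the one it replaces does not depend on how libraries are scaled. Psmb8 to Psmb5 was 6.60 in wild type and 5.78 in the mutant at day 3, and 6.96 and 5.07 at day 5 (ratios of RPKM). Psmb9 to Psmb6 was 0.997 and 1.12 at day 3, and 1.27 and 0.836 at day 5. Psmb10 to Psmb7 was 0.702 and 0.789 at day 3, and 0.687 and 0.652 at day 5. For each pair the mutant at day 5 had the lowest ratio of the 4 libraries. At day 5 the ratio in the mutant was 0.728 times that in wild type (conditional exact 95% interval 0.641 to 0.827) for the beta5 pair and 0.658 times (0.590 to 0.733) for the beta1 pair. For the beta2 pair it was 0.95 times (0.851 to 1.06), an interval that includes 1. At day 3 the same values were 0.877 (0.761 to 1.01), 1.13 (1.01 to 1.25) and 1.12 (0.999 to 1.27), so the beta5 pair was lower and the others higher, with 2 of the 3 intervals including 1. Summed over the 3 pairs, the inducible to constitutive ratio was 1.72, 1.82, 1.99 and 1.55.

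**Figure D3:**
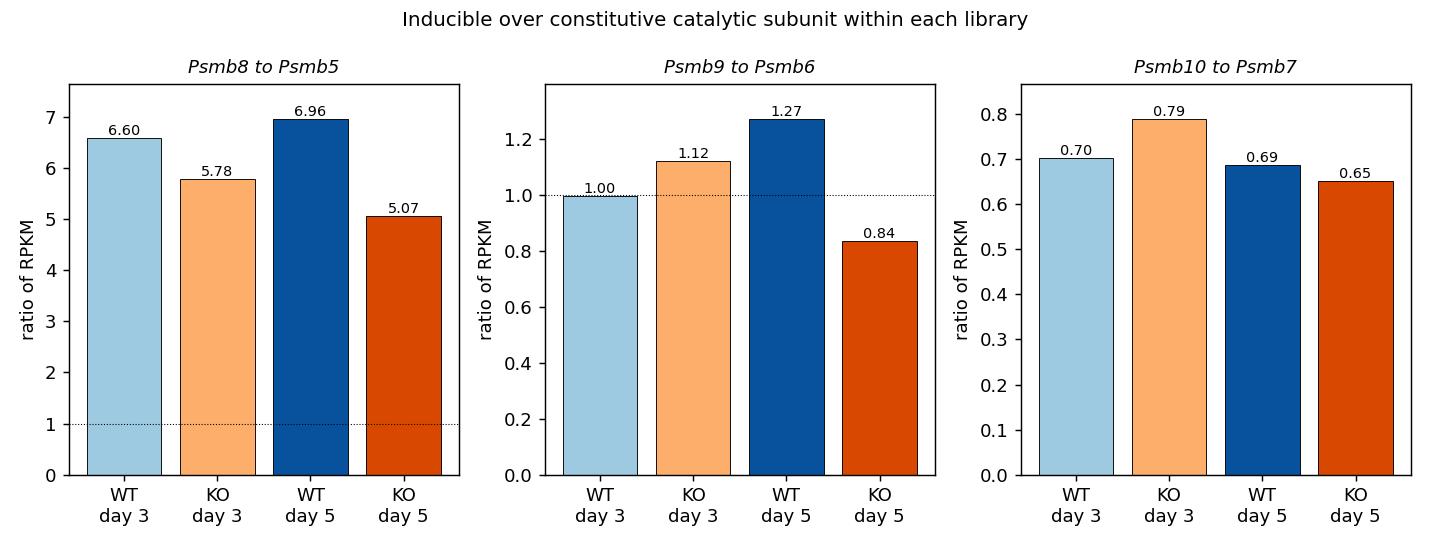
Ratio of RPKM of the inducible to the constitutive catalytic subunit in each library, for beta5 (Psmb8 to Psmb5), beta1 (Psmb9 to Psmb6) and beta2 (Psmb10 to Psmb7), with bars from 0 and a dotted line at a ratio of 1 where it falls within the axis. The mutant at day 5 is the lowest bar in each panel, at 5.07, 0.836 and 0.652.

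Between the days, inducible and constitutive genes were both mostly higher at day 5 in wild-type cells, whereas in mutant cells the constitutive ones were and the inducible catalytic ones were not. In wild type all 5 inducible and PA28 genes were higher at day 5, as were 69.3% of all genes. Their median was 0.32 against 0.16 over all genes, with 0 of 5 past the rule, and Psme1 turned negative after rescaling by the median ratio. The constitutive median there was 0.23, 29 of 31 being higher and 0 past the rule of 0.5, where 13.0% of all genes were higher and 6.7% lower by it. After rescaling by the median ratio, which brings the median of all genes to 0.01, the constitutive median was 0.066 and 21 of 31 were higher. In the mutant the constitutive median was 0.21 against 0.04 over all genes, 30 of 31 being higher and 1, Psmb2, past the rule, 0 after rescaling by the median ratio (4.96% of all genes were higher and 9.15% lower by it). By direction alone 56.1% of all genes were higher at day 5 in the mutant. The inducible and PA28 median there was 0.04, with Psmb9 at -0.29 and Psmb10 at -0.10 lower and Psme1 at 0.28 highest. In the mutant Psmb9 at day 5 was 0.818 times its day 3 level (0.755 to 0.886), and in wild type 1.15 times (1.07 to 1.25), or 1.02 times (0.946 to 1.11) after rescaling by the median ratio.

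In all, 28 of 31 constitutive subunits were lowest in wild type at day 3 and highest in the mutant at day 5, an order that 28.3% of all genes had, and 30 of 31 were highest in the latter, as were 36.4% of all genes. The exceptions were Psmb4, highest in the mutant at day 3, and Psmb6 and Psmd7, lowest in wild type at day 5. Of the inducible and PA28 genes, 2 of 5 (Psme1 and Psme2) had that order. The proteasome genes of the rule together made up 0.860%, 1.06%, 0.996% and 1.28% of all RPKM in the 4 libraries, and the 5 inducible and PA28 genes stood at 0.319, 0.288, 0.329 and 0.260 times the summed constitutive level.

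**Figure D4:**
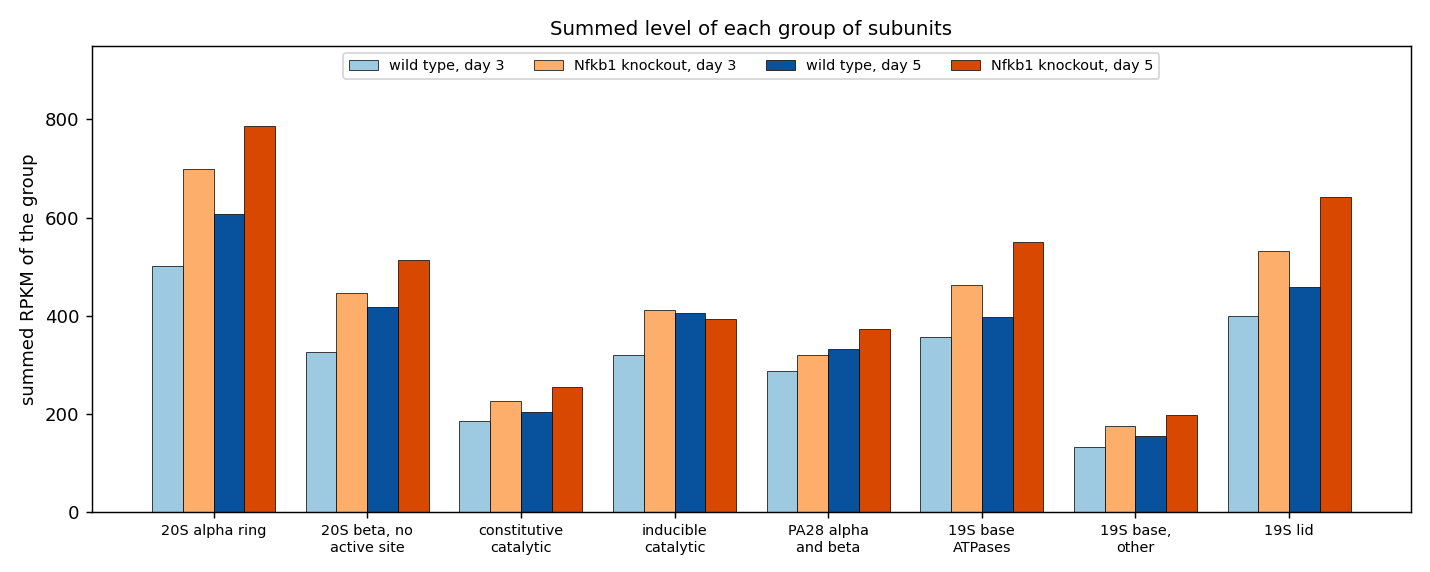
Summed RPKM of each group of subunits in the 4 libraries, with bars from 0. The alpha ring runs from 501 RPKM in wild type at day 3 to 787 RPKM in the mutant at day 5, while the inducible catalytic group stands at 319, 411, 405 and 394 RPKM.

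Assembly factors held the widest differences. Psmg1, which with Psmg2 starts the alpha ring, stood at 12.6, 17.3, 11.1 and 26.6 RPKM, so that the mutant at day 5 lay far above the other libraries. The mutant to wild-type ratio at day 3 was 1.38 (1.15 to 1.66), and that at day 5 was 2.41 (2.02 to 2.88), a difference of 1.2, past a rule of 1 that no other proteasome gene passed there (1.16% of all genes were higher by it). Psmg2 did not follow its partner, at 6.26, 9.46, 8.60 and 10.1 RPKM. Psmg4, which acts with Psmg3, stood at 11.1, 16.6, 19.9 and 30.0 RPKM on 81 to 221 reads, higher in the mutant at both days by 0.54 and 0.57 and at day 5 by 0.78 in wild-type and 0.81 in mutant cells. Of the base chaperones, Psmd5 was higher in the mutant by 0.69 at day 3 and 0.21 at day 5, Psmd9 by 0.21 and 0.55, and Psmd10 by 0.11 and 0.23. Pomp, the maturation factor of the core, which the symbol rule does not take, stood at 117, 158, 182 and 174 RPKM and so was lowest in wild type at day 3.

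Among the remaining genes, Psme3, the nuclear PA28 gamma, was higher in the mutant by 0.44 and 0.48, and Psme4, the PA200 activator, by 0.19 and 0.05. Psmf1, which encodes the inhibitor-like protein PI31, stood at 5.86, 6.90, 6.82 and 5.82 RPKM and was the only gene beside Psmb9 whose counting interval lay under 1 for the genotype ratio at day 5, at 0.854 (0.734 to 0.992), where 28.0% of all genes had such an interval. After rescaling to one sum of RPKM the interval for Psmf1 was 0.751 to 1.02. Psmc3ip, no subunit, was higher in the mutant by 0.64 and 0.66, and Psme3ip1 by 0.22 and 0.21. Over all 49 genes, 14 were higher by the rule of 0.5 at day 3 and 13 at day 5, with 0 lower (4.43% and 11.5% of all genes were lower by it). Rescaling by the median ratio left 2 of the 14 at day 3, and rescaling to one sum of RPKM 9. After these rescalings 12.7% and 13.2% of all genes passed the rule at day 3 in either direction. The genes past the rule at both days were 4: Psmc3ip, Psmc5, Psmd3 and Psmg4, which is 28.6% of the day 3 and 30.8% of the day 5 genes. Over all genes 457 were higher at both days, which is 35.8% of those of day 3 and 45.4% of those of day 5. The genes nearest the rule were Psmd11 at 0.49 and Psmg2 at 0.53 at day 3, and Psmd6 at 0.49 and Psmc4 at 0.51 at day 5.

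An additive limma fit of genotype and day over all 11786 genes, whose spread comes from the departure from additivity (1 residual degree of freedom) and is moderated across genes, called 0 of the 49 genes for genotype or for day at an adjusted p under 0.05. For genotype it called 0.0% of all genes, and for day 1.15%. At an unadjusted p under 0.05 it held 26 of 49 for genotype, where 19.3% of all genes did, and 2 of 49 for day, where 17.8% did. After rescaling by the median ratio the count for genotype was 15 of 49 (20.1% of all genes), and after rescaling to one sum of RPKM that for day was 5 of 49 (22.0%). The smallest adjusted p values were 0.127 for Psmc3ip by genotype and 0.0715 for Psmg4 by day. The additive form holds no term for a genotype difference that moves between the days, and for Psmb9 it gave a genotype effect of -0.02 (SE 0.18, adjusted p 0.971).

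Of 28 other genes of the ubiquitin-proteasome pathway in a list chosen for this purpose, 1 was higher by the rule of 0.5 at day 3 (Usp14, a deubiquitinase of the cap, at 0.63) and 0 lower, with a median of 0.25. By this rule 10.8% of all genes were higher and 4.43% lower at day 3, and 8.54% and 11.5% at day 5. At day 5, 5 were higher and 0 lower, with a median of 0.16: the base ubiquitin receptor Adrm1 at 0.63, its partner deubiquitinase Uchl5 at 0.61, Nfe2l2 at 0.55, the shuttle factor Rad23b at 0.52 and Txnl1 at 0.51. Adrm1 stood at 25.4, 28.7, 21.5 and 33.8 RPKM, highest in the mutant at day 5, as were 36.4% of all genes. Its lowest level was in wild type at day 5, where it stood at -0.23 against day 3. The polyubiquitin gene Ubb was lower there, at -0.33. Nfe2l1, the transcription factor known for driving proteasome genes when the enzyme is inhibited, stood at 21.7 to 24.4 RPKM in all libraries, whereas its relative Nfe2l2 stood at 79.3, 102, 71.6 and 105 RPKM. Between the days 1 of the 28, Pomp at 0.64, was higher by the rule in wild type and 0 in the mutant, with medians of 0.21 and 0.19 (13.0% and 4.96% of all genes were higher by it).

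By the order of genes in the RefSeq table (GRCm38.p6), Psmb9, Tap1, Psmb8 and Tap2 follow each other on chromosome 17 within the class II region, and Psme1 and Psme2 lie on chromosome 14 with Emc9 between them. Tap1 and Tap2, which encode the peptide transporter, had ratios of mutant to wild type at day 5 of 0.858 (0.811 to 0.908) and 0.751 (0.708 to 0.797), beside the 0.829 of Psmb9 and 0.998 of Psmb8. At day 3 they were 1.08 (1.02 to 1.13) and 1.06 (1.00 to 1.12). The 12 class I loading genes had a median of 0.09 between genotypes at day 3 and of 0.05 at day 5, 1 being past the rule (Canx, the chaperone calnexin, at 0.51 at day 3, where 10.8% of all genes were higher by it). Between the days their median was 0.05 in wild-type cells and -0.21 in the mutant, where the class I heavy chains H2-D1 at -0.66 and H2-K1 at -0.64 were lower by the rule, and in wild type their regulator Nlrc5 was, at -0.58. Lower by the rule between the days were 9.15% of all genes in the mutant and 6.7% in wild type.

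Interferon-gamma is the textbook inducer of these subunits, so other interferon genes are given beside them. The 28 interferon-stimulated genes had a median of 0.16 between genotypes at day 3 and of 0.30 at day 5, with 5 and 12 higher by the rule (10.8% and 8.54% of all genes were) and 0 lower, led by the guanylate-binding protein Gbp5 at 1.15 and 1.42. Between the days they were lower, at a median of -0.68 in wild-type and -0.46 in mutant cells and 17 and 14 lower by the rule, as were 6.7% and 9.15% of all genes. The 13 interferon regulators had medians of -0.06 and -0.16 between genotypes, and -0.10 and -0.05 between the days. Of these, Irf8, a regulator of dendritic fate, was lower in the mutant at day 5, at 119 against 241 RPKM, a difference of -1.01, while Jak2 stood at -0.57 and Irf1 at -0.23. Of the 13 regulators 5 were higher and 8 lower there, with 0 higher and 2 lower by the rule (8.54% and 11.5% of all genes). Between the days, 2 were higher and 1 lower by the rule in wild type (13.0% and 6.7% of all genes). In the mutant 0 were higher and 2 lower by it (4.96% and 9.15%).

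Markers of cell state and cell type moved between the same libraries, and their part in the values above was not tested. The summed level of 21 proliferation genes was 687, 968, 924 and 1313 RPKM in wild type day 3, mutant day 3, wild type day 5 and mutant day 5, lowest and highest in the same libraries as the constitutive subunits. Conventional dendritic cell markers summed to 483, 394, 776 and 365 RPKM, with 13 of the 14 that passed the filter lower in the mutant by the rule at day 5 and 12 higher at day 5 in wild type. Between the days 1 of the 14 was lower by the rule in wild type (6.7% of all genes). In the mutant 4 were higher and 4 lower at day 5 by it (4.96% and 9.15% of all genes). By the rule 11.5% of all genes were lower in the mutant at day 5 and 13.0% higher at day 5 in wild type. Plasmacytoid markers (10 genes) summed to 521, 548, 591 and 429 RPKM, with 7 of 10 lower in the mutant at day 3 and 9 of 10 at day 5. Neutrophil markers (15) summed to 34868, 24998, 14221 and 3410 RPKM. Of these 15, 11 were lower in the mutant and 4 higher at day 3, and 13 lower and 2 higher at day 5, Prtn3 rising most at 0.94 and 0.98. By direction alone 66.6% of all genes were higher in the mutant at day 3 and 51.2% at day 5. Monocyte and macrophage markers (13) summed to 6457, 8583, 6121 and 7504 RPKM, but these sums were mostly Lyz2, and 7 of the 13 genes were higher and 6 lower in the mutant at each day. Basophil and mast cell markers (7) summed to 207, 167, 254 and 46.6 RPKM and megakaryocyte markers (7) to 361, 414, 877 and 400.5 RPKM. B cell markers (10) summed to between 145 and 425 RPKM, T and NK cell markers (10) between 7.1 and 38.5 RPKM and erythroid markers (9) between 12.6 and 264 RPKM, each lowest in the mutant at day 5. No marker was listed at 0. Those with 3 reads or fewer in some library were Vpreb1 and Igll1 of the B cell list, Cd3g and Ncr1 of the T and NK list, and Alas2, Car1 and Klf1 of the erythroid list.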

How the data were processed

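Polyadenylated RNA from 4 cultures was sequenced, 1 library per group, from trizol extracts and a Kapa mRNA HyperPrep kit, per the labels' protocols. HISAT2, SAMtools and the mm9 build are named in the submitters' processing notes, without versions. Counter, annotation and strand setting were not given in the sources used here. Deposited by the authors were RPKM values for 26026 genes, per the file headers. Whole reads, gene lengths and library totals were recovered from the steps of these values (tolerance 0.003 reads), and no value was 0: genes without reads may stand at the value of 1 read. Lengths of 32 of 48 proteasome genes lay within 10% of a reference transcript, so levels between genes depend on the gene models used.

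Differences are of log2(RPKM + 1) with no further scaling, for genes that averaged at least 1 RPKM, and understate the change of low genes. With 1 library per group a difference between 2 libraries has no test, and only the additive fit over all 4 gives p-values. Size rules of 0.5 and 1 were used, and exact (Clopper-Pearson, or conditional for ratios within a library) 95% intervals of the recovered reads, which cover counting error only. Such reads carry no molecular identifiers, so they are not independent molecules. limma 3.58.1 (R 4.3.3) gave the additive fit with Benjamini-Hochberg adjustment, and Python 3.11.15 with SciPy 1.17.1 the rest. Procedures were tested on simulated libraries, in which the additive fit also called unchanged genes, so its calls are given as a description.

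The genes of the rule, the gene lists (roles, ubiquitin-proteasome, class I loading, interferon, proliferation and cell type markers) and the tests were chosen with earlier results of these data known. Named genes are the inducible and PA28 genes with their partners, the highest and lowest of each role, those past 0.5 or with the largest differences, those that failed the filter, up to 4 members of each other list past 0.5 per comparison, and Nfkb1, Nfe2l1, Pomp, Adrm1, Tap1, Irf1 and Nlrc5. Another gene that this rule names is not reported here. Any other gene was chosen after its values were seen. Alternatives were a pseudocount of 0.1 or 5 RPKM, the filter left out or set to 5 RPKM, libraries rescaled by their median ratio or to one sum of RPKM, and limma run with a trend or robustly. A filter of 20 recovered reads, the comparison with genes of at least 20 RPKM and a count without Psmc3ip, Psme3ip1 and Psme2b were added after the data were seen.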

Additional observations from a re-analysis of the deposited data

Results flagged for a closer look

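The genotype difference of Psmb9 had opposite directions at the days, 0.22 at day 3 and -0.27 at day 5, and its day difference opposite directions in the genotypes, 0.20 in wild type and -0.29 in the mutant. Psmf1 did the same, at 0.20 and -0.20 between genotypes and at 0.19 and -0.21 between the days. Psmb6 had day differences of -0.14 in wild type and 0.13 in the mutant. Without rescaling each of these values has a counting interval of its ratio clear of 1. After rescaling by the median ratio the higher values became 0.05 and 0.03 for Psmb9 and 0.06 and 0.04 for Psmf1, with intervals that include 1, while the directions stayed opposite. After rescaling to one sum of RPKM all 4 intervals of Psmf1 include 1. The differences between the groups were not tested against a spread between cultures, as each group is 1 library, and Psmb9 and Psmb6 are the pair of beta1 subunits.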

How the results depend on the processing

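No paired analysis was possible because each group holds 1 library and the labels give no replicate numbers. No proteasome gene past the rule of 0.5 changed direction under any alternative that was run. Rescaling by the median ratio moved the median of all genes from 0.13 to -0.02 (genotype, day 3) and from 0.16 to 0.01 (day, wild type). With it the genes past the rule were 2 in place of 14 at day 3 between genotypes, 1 in place of 3 between the days in wild type and 2 in place of 4 in the mutant. Of all genes 12.7%, 16.8% and 13.9% then passed the rule in either direction, in place of 15.3%, 19.7% and 14.1%. The inducible and PA28 median became 0.20 and the constitutive median 0.26 for genotype at day 3, and 0.16 and 0.066 for day in wild type. Rescaling to one sum of RPKM gave 9 genes past the rule and an inducible median of 0.28 for genotype at day 3, and an inducible median of 0.13 for day in the mutant. A pseudocount of 5 RPKM left 1 gene past the rule between the days in wild type. Counts for genotype at day 5 stayed within 1.5 times under each alternative that was run. No alternative of the additive fit called a proteasome gene. Depth did not limit most genes. The lack of replicate libraries limits every comparison.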
